A study of Danio rerio with 4 samples.

Results

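The 8 genes gata4, gata5, gata6, hand2, isl1, mef2ca, mef2cb and tmem88a encode factors that act in heart progenitor cells. They were taken by symbol from a deposited table of 32538 zebrafish genes, and each symbol matched 1 row. Embryos were collected at 6 somites, 12 h after fertilization, either as tbx1 mutants carrying the vgo allele (2 libraries), which the extraction protocol calls null, or as wild-type controls (2 libraries). Each library held polyadenylated RNA of the whole embryo, less the tail tip and a little yolk that were cut off for genotyping. The labels do not say whether a library was 1 embryo or a pool, or whether the controls came from the same crosses, so the p-values cover the spread among these 4 libraries alone, part or all of which may be technical. Fewer cells of a type and less RNA per cell cannot be told apart in RNA of whole embryos.

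Gata4, Gata5 and Gata6 are zinc finger transcription factors that bind GATA motifs in DNA and act in heart mesoderm and in endoderm. Hand2 is a basic helix-loop-helix factor of the lateral plate mesoderm that zebrafish need to form a normal number of heart muscle cells, and Isl1 is a LIM homeodomain factor that marks late-added heart progenitors as well as early neurons. The proteins of mef2ca and mef2cb are MADS-box factors that activate muscle genes, and Tmem88a is a membrane protein that dampens Wnt signalling in the heart field. At this stage the heart progenitors still lie in bilateral fields and the heart tube has not formed.

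All 8 genes had a usable estimate in the 4 libraries and passed the minimum of a mean of 1 FPKM (fragments mapped to a gene, scaled to its transcript length and to the library's total), with which 13448 genes were tested. Read totals were not given. Depth was estimated from the commonest ratio to control 1 among the lowest values of the same genes. Relative to control 1 it came to about 0.82 in mutant 1, 0.72 in mutant 2 and 0.84 in control 2. Only 228 of 2548 low genes lay near that ratio in mutant 1, 242 of 2394 in mutant 2 and 355 of 2444 in control 2. tbx1, the mutated gene, stood at 4.91 and 4.52 FPKM in the mutants, against 9.08 and 9.14 FPKM in the controls (log2 difference -0.88, adjusted p = 0.227 in limma). tbx1 RNA was thus still detected in both mutant libraries. Most genes of heart muscle were at low levels, with 12 of 15 at a mean under 1 FPKM. nppa, cmlc1 and bmp10 were listed at 0 in the 4 libraries, and myl7 reached at most 0.0961 FPKM. Of 15 heart muscle genes, 3 were tested, and all of these are used in other tissues too. They stood far higher, with actc1a at a mean of 63.4 FPKM and smyd1b at 24.1 FPKM. The third, tpm4a, named after its values were seen, had 100.7 to 109 FPKM.

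No difference between mutants and controls was detected for any of the 8 factors. In limma, 0 of 8 passed an adjusted p of 0.05 in either direction, where 0.0669% of all genes tested passed (0.0297% higher and 0.0372% lower in the mutants), and 0 of 8 had an unadjusted p under 0.05, against 1.99% of all genes. The differences were positive for mef2cb, mef2ca, tmem88a and gata4 and negative for gata6, isl1, hand2 and gata5, with a median of 0.028, against 0.017 over all genes tested. Of all genes tested, 57.2% had a positive difference. For 7 of 8 the log2 difference lay within 0.3, as it did for 94.3% of all genes. The mutants did not overlap the controls for 3 of 8 genes, against 24.8% of all genes tested. With 2 libraries a group, the smallest p of an exact permutation test is 0.333, and the tests rest on the spread that limma pools over genes.

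**Figure D1:**
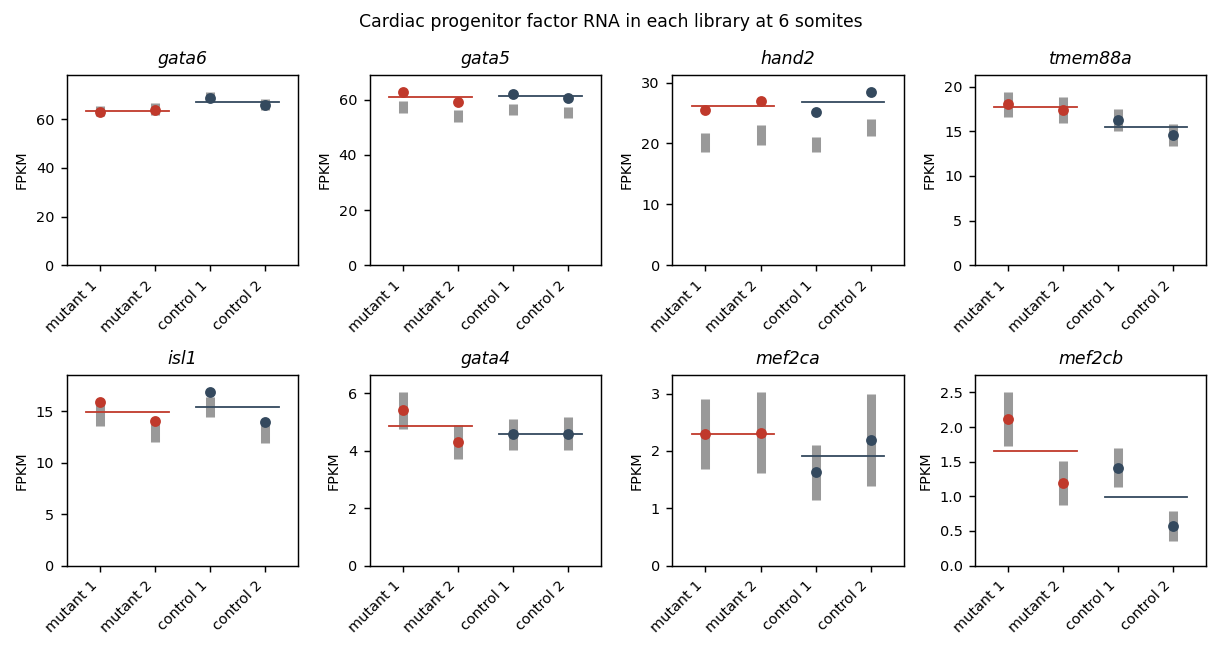
FPKM (y axis, linear from 0, a scale of its own for each gene) of the 8 factors in the 2 mutant libraries (red) and the 2 control libraries (dark blue), in order of mean level. Points are deposited values, horizontal lines group means and grey bars the deposited 95% bounds. For gata5 and hand2 all 4 points lie above their own bars, and for mef2cb mutant 1 is the highest and control 2 the lowest library.

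In level the 8 genes spanned from 65.2 FPKM for gata6 to 1.32 FPKM for mef2cb, as means of the 4 libraries. Between them came gata5 at 61.1, hand2 at 26.5, tmem88a at 16.5, isl1 at 15.2, gata4 at 4.72 and mef2ca at 2.103 FPKM. FPKM is scaled to transcript length, so these levels can be set side by side between genes, though only roughly, given the bounds described below. gata6 had a higher mean than 88.3% of all genes tested, and mef2cb than 5.86%. In this order 2 neighbouring pairs overlapped in their ranges over the libraries. tmem88a (14.6 to 18.0 FPKM) overlapped isl1 (14.0 to 16.9 FPKM) and was the higher of the pair in 3 of 4 libraries. mef2ca (1.62 to 2.32 FPKM) overlapped mef2cb (0.568 to 2.11 FPKM), though it was the higher in 4 of 4. gata6 was above gata5 in 4 of 4 libraries, but the lowest gata6 value, 62.9 FPKM, was close to the highest gata5 value, 62.8 FPKM.

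The bounds that came with the values bear on these levels, though not on their order. All 4 values of gata5 and of hand2, and 3 of 4 of isl1, lay above their own deposited upper 95% bound, while all 4 values of the other 5 genes lay inside. Over all genes tested, 22.1% of values lay above their own upper bound, and the same happened in all 4 libraries for 19.4% of genes. The midpoints of the bounds averaged 55.7 FPKM for gata5, 21.0 FPKM for hand2 and 14.0 FPKM for isl1. For gata6 that midpoint was 65.7 FPKM. No locus of another gene in the table overlapped any of the 8 loci.

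For the GATA factors no difference between mutants and controls was detected, and the intervals were narrower for gata5 and gata6 than for gata4. gata5 (ENSDARG00000017821, Zv9 chromosome 23 from 7453292 to 7464593), which zebrafish need for heart and endoderm formation, had 62.8 and 59.0 FPKM in the mutants, against 62.1 and 60.6 FPKM in the controls. The mutant values lay on either side of the control values. The log2 difference was -0.012 (SE 0.0684, 95% interval -0.19 to 0.17, adjusted p = 1.0 in limma), which bounds the fold between 0.876 and 1.12 on the log2(FPKM + 0.5) scale. Its sign turned when 1 library was left out, at 0.033 without mutant 2 and 0.0051 without control 1.

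gata6 (ENSDARG00000035831) lies on a Zv9 scaffold that is not placed on a chromosome, Zv9_scaffold3540 from 164733 to 175324. It acts with gata5 in the heart field and endoderm. Its values were 62.9 and 63.7 FPKM in the mutants, against 68.5 and 65.7 FPKM in the controls. Both mutant values were below both control values, as for 9.14% of all genes tested, but the difference was small. The means were 63.3 ± 0.566 FPKM in mutants and 67.1 ± 2.03 FPKM in controls (SD, n = 2 each). In limma the log2 difference was -0.083 (SE 0.0640, 95% interval -0.25 to 0.086, adjusted p = 1.0), and the interval leaves room for a fold of 0.840 to 1.06.

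gata4 (ENSDARG00000035759, chromosome 20 from 53586306 to 53602069), a factor of heart and gut, was far lower than its relatives. It had 5.41 and 4.31 FPKM in the mutants, against 4.58 and 4.59 FPKM in the controls. The controls were almost equal and the mutants lay on either side of them, so the gap between the mutants was wider than that between the means of the genotypes. The log2 difference of 0.068 (SE 0.134, 95% interval -0.28 to 0.42, adjusted p = 1.0 in limma) turned to -0.079 without mutant 1.

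Within each library the proportions of the 3 GATA RNAs can be compared free of any scaling of that library. gata4 made up 4.12% and 3.40% of their summed FPKM in the mutants, against 3.39% and 3.51% in the controls. gata5 made up 47.9% and 46.4% in the mutants, against 45.9% and 46.3% in the controls. gata6 supplied the remaining 48.0% and 50.2% in the mutants and 50.7% and 50.2% in the controls. Mutant 1 had the highest gata4 and gata5 shares, while mutant 2 lay close to the controls for each gene. The summed level of the 3 genes was 131 and 127 FPKM in the mutants, against 135 and 131 FPKM in the controls.

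hand2 and isl1 had overlapping values in the genotypes. hand2 (ENSDARG00000008305, chromosome 1 from 38602512 to 38604378) had 25.5 and 26.9 FPKM in the mutants, against 25.2 and 28.5 FPKM in the controls. Both mutant values fell between the control values, and the spread between the controls was larger than the difference of the means, 26.2 ± 0.985 FPKM in mutants and 26.8 ± 2.305 FPKM in controls (SD, n = 2 each). The log2 difference was -0.031 (SE 0.0896, 95% interval -0.27 to 0.20, adjusted p = 1.0 in limma), a fold between 0.831 and 1.15. It was 0.055 without control 2 and 0.0063 without mutant 1.

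isl1 (ENSDARG00000004023) lies on chromosome 5, as tbx1 and mef2cb do, from 42353742 to 42359175. It had 15.9 and 14.0 FPKM in the mutants, against 16.9 and 14.0 FPKM in the controls. In each genotype the library numbered 1 was the higher, and this gap was wider than that between the genotypes. The log2 difference between genotypes was -0.037 (SE 0.126, 95% interval -0.37 to 0.29, adjusted p = 1.0 in limma), and it was 0.053 without mutant 2 and 0.095 without control 1. Because isl1 is also used in early sensory and motor neurons, its level is not that of heart progenitors alone. Genes listed for those neurons summed to 62.6 and 63.3 FPKM in the mutants, against 65.7 and 60.9 FPKM in the controls. Their highest gene was neurog1, named after its values were seen. Without it they summed to 39.9 and 36.9 FPKM in the mutants, against 39.9 and 35.6 FPKM in the controls. In that reduced sum the library numbered 1 was the higher in each genotype, as for isl1. The full sum did not share this, since mutant 2 was the higher mutant there. Of all genes tested, 65.8% had library 2 minus library 1 of the same sign in both genotypes. The part of these cells in the isl1 values was not tested.

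The mef2c pair had the largest differences of the 8 genes, at the lowest levels and with the widest error. mef2cb (ENSDARG00000009418, chromosome 5 from 49966160 to 50043000), which acts in heart progenitors, had 2.11 and 1.19 FPKM in the mutants, against 1.41 and 0.568 FPKM in the controls. The groups overlapped, since control 1 lay above mutant 2. The means were 1.65 ± 0.649 FPKM in mutants and 0.989 ± 0.596 FPKM in controls (SD, n = 2 each). The control mean alone was under the 1 FPKM minimum, so the mutant values also brought the gene into the test. Its log2 difference was 0.56 (SE 0.373, 95% interval -0.42 to 1.54, adjusted p = 1.0 in limma), a size that 2.09% of all genes tested exceeded in either direction. That interval spans folds from 0.746 to 2.90. The value depended on single libraries, with 0.14 without control 2, 0.25 without mutant 1, 0.87 without mutant 2 and 0.98 without control 1.

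mef2ca (ENSDARG00000029764, chromosome 10 from 45064985 to 45175629), known for its part in skeletal muscle and jaw patterning in zebrafish, had 2.29 and 2.32 FPKM in the mutants, against 1.62 and 2.18 FPKM in the controls. Both mutant values were above both control values, as for 15.6% of all genes tested, and control 1 was the library that stood low. The log2 difference was 0.23 (SE 0.164, 95% interval -0.20 to 0.66, adjusted p = 1.0 in limma), and it was 0.063 without control 1. The ratio of mef2ca to mef2cb within a library was 1.08 and 1.94 in the mutants, against 1.15 and 3.85 in the controls. This ratio was thus nearly 1 in both libraries numbered 1 and higher in both libraries numbered 2.

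tmem88a (ENSDARG00000056920, chromosome 10 from 22972293 to 22979870) had the lowest p-value of the 8. It had 18.0 and 17.3 FPKM in the mutants, against 16.2 and 14.6 FPKM in the controls. The mutants did not overlap the controls, but the deposited 95% intervals did, as they did between the genotypes for each of the 8 genes. Such intervals were separate for 0.64% of all genes tested. The means were 17.7 ± 0.462 FPKM in mutants and 15.4 ± 1.14 FPKM in controls (SD, n = 2 each), a ratio of 1.15. The log2 difference was 0.19 (SE 0.0862, 95% interval -0.034 to 0.42, adjusted p = 1.0 in limma, after an unadjusted p of 0.0797), and 13.2% of all genes tested had a larger one in either direction. It was 0.12 without control 2 and 0.27 without control 1.

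**Figure D2:**
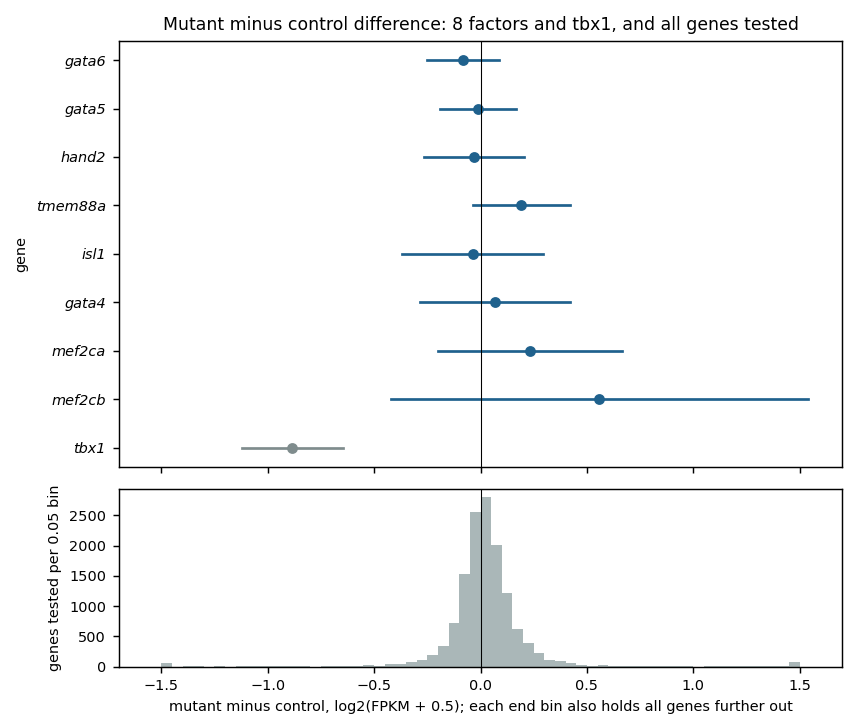
Top, mutant minus control differences on the log2(FPKM + 0.5) scale (points) with limma's 95% intervals (lines) for the 8 factors in order of level, and for tbx1 in grey. Bottom, the number of genes tested in each bin of the same difference; the 8 intervals all include 0, and that of tbx1 runs from -1.12 to -0.64.

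The values nearest to those of tmem88a over the 4 libraries, measured as the Euclidean distance of log2 values centred on each gene's mean, included those of the rows CPEB4 (1 of 3) at a distance of 0.0106 and supt7l at 0.0214. A profile of 4 values is shared by many genes, since 418 genes, or 3.1% of those tested, lay within a distance of 0.1.

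Library number split some of the 8 genes more than genotype did. Library 2 minus library 1 had the same sign in mutants and controls for 6 of 8 genes, as it did for 65.8% of all genes tested. For mef2cb this difference was -0.63 in the mutants and -0.84 in the controls on the log2 scale. For isl1 it was -0.18 in the mutants and -0.26 in the controls. mef2cb, isl1, gata5 and tmem88a were lower in the libraries numbered 2 of both genotypes, and hand2 and mef2ca were higher. No label gives the number a meaning. Mutant minus control had the same sign at both numbers for 4 of 8 genes, against 51.9% of all genes tested. These were mef2cb (0.45 between libraries 1 and 0.67 between libraries 2), tmem88a (0.15 and 0.24), mef2ca (0.39 and 0.071) and gata6 (-0.12 and -0.043).

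**Figure D3:**
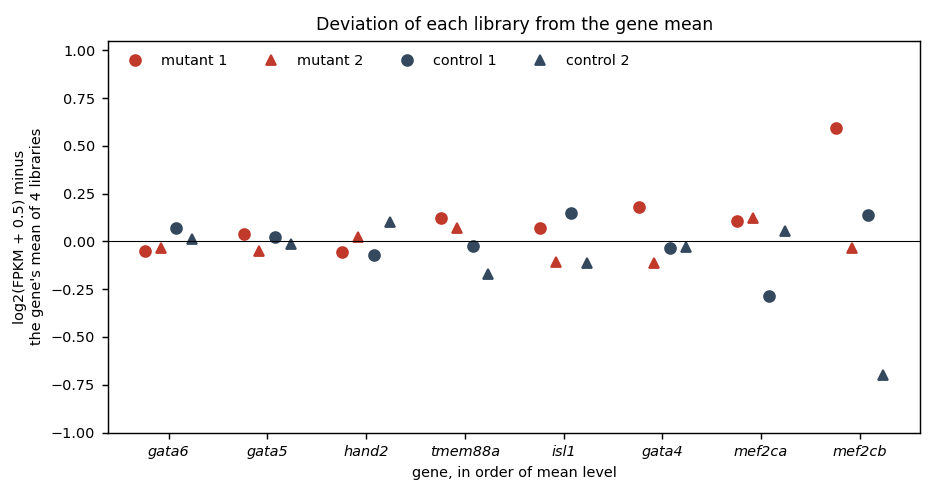
Deviation of each library from the gene's mean over the 4 libraries, in log2(FPKM + 0.5) units, with mutants in red, controls in dark blue, libraries numbered 1 as circles and libraries numbered 2 as triangles. For mef2cb and isl1 both circles lie above the triangle of the same colour, and mef2cb has the widest scatter, with control 2 lowest.

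The closest relatives of the 8 genes were next compared between mutants and controls. Of 13 paralogs, 7 were tested, 0 passed an adjusted p of 0.05 and 0 had an unadjusted p under 0.05 in limma. Over all genes tested these shares were 0.0669% and 1.99%, so 0 of 7 is near both. Differences of the paralogs were positive for 2 and negative for 5, with a median of -0.054, where 57.2% of all genes tested had a positive one. gata3, a factor of ectoderm and neurons, had 39.5 and 34.9 FPKM in the mutants, against 40.2 and 36.3 FPKM in the controls (log2 difference -0.041). gata2a, a factor of blood and ectoderm, had 36.0 and 28.1 FPKM in the mutants, against 36.2 and 30.5 FPKM in the controls (-0.060). In both genes the library numbered 2 was the lower one of each genotype, and the genotypes overlapped.

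At lower levels, the blood factor gene gata1a averaged 2.31 FPKM in mutants and 2.01 FPKM in controls (log2 difference 0.17). isl2a, a gene of primary neurons, averaged 13.1 FPKM in mutants and 12.2 FPKM in controls (0.092), and tmem88b averaged 12.1 FPKM in mutants and 12.6 FPKM in controls (-0.054). mef2d averaged 5.48 FPKM in mutants and 5.73 FPKM in controls (-0.056), more than either mef2c gene. mef2b was at the minimum for testing, with 0.755 and 0.968 FPKM in the mutants and 0.562 and 1.73 FPKM in the controls (-0.18). gata1b, gata2b, isl1l, isl2b, mef2aa and the row MEF2A stayed under the minimum, at group means of 0.00636 to 0.835 FPKM.

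Partners and upstream genes of the 8 factors did not pass either. Of 20 matched partner factors and cofactors, 12 were tested and 0 passed in either direction, with 0 at an unadjusted p under 0.05 in limma and a median of 0.041. Over all genes tested these shares were 0.0669% and 1.99%, so 0 of 12 is near both. nkx2.5, the homeobox gene of heart progenitors named in the title of the series, had 0.526 and 1.17 FPKM in the mutants, against 1.69 and 1.35 FPKM in the controls. Both mutants were below both controls, as for 9.14% of all genes tested. The log2 difference of nkx2.5 was -0.62, with an unadjusted p of 0.0850 in limma. Mutant 1 stood lowest, and the difference was -0.27 without it and -0.97 without mutant 2. The mutant mean of 0.846 FPKM alone was under the 1 FPKM minimum, so nkx2.5 was tested through its higher control values. nkx2.7 of the same list, named after its values were seen, was far more abundant. It had 42.9 and 37.9 FPKM in the mutants, against 45.6 and 43.2 FPKM in the controls (log2 difference -0.14). Among the 12 partners tested, both mutants were above both controls for 4, against 15.6% of all genes tested. They were below for 3, against 9.14%. tcf3, an E protein that can pair with helix-loop-helix factors, had 20.5 and 19.8 FPKM in the mutants, against 19.2 and 16.1 FPKM in the controls (log2 difference 0.19).

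Of 31 matched signals and factors upstream of the heart and endoderm fields, 26 were tested and 0 passed in either direction, with 0 at an unadjusted p under 0.05 in limma and a median of 0.012. Over all genes tested these shares were 0.0669% and 1.99%, so 0 of 26 is near both. fgf3, a secreted growth factor gene, had 7.35 and 7.07 FPKM in the mutants, against 8.21 and 8.63 FPKM in the controls (log2 difference -0.21). smad3b, an effector of Nodal and TGF-beta signals, had 1.45 and 1.53 FPKM in the mutants, against 1.21 and 0.947 FPKM in the controls (0.34).

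Other cell types of the embryo were followed by lists of their own genes. In each list 0 passed an adjusted p of 0.05 in limma, near the 0.0669% of all genes tested. An unadjusted limma p under 0.05 was found for ctsl1b, 1 of 7 hatching gland genes, and ckma, 1 of 10 skeletal muscle genes. None was found in the heart muscle, endoderm, yolk syncytial, neuron and blood lists. Of all genes tested, 1.99% had such a p. All 7 hatching gland genes had positive differences (median 0.19), where 57.2% of all genes tested had a positive one. In this list ctsl1b had 102 and 100.3 FPKM in the mutants, against 89.5 and 87.1 FPKM in the controls. Its unadjusted p was 0.0277 in limma. agr2 of the same list had a log2 difference of 0.26. These genes summed to 947 and 819 FPKM in the mutants, against 852 and 751 FPKM in the controls, so mutant 2 lay below control 1. Of 13 genes of the yolk syncytial layer, where gata5 and gata6 are also used, 10 had negative differences (median -0.084), with serpina1 at -0.084 and serpina1l at -0.090. Their summed level was 18285 and 17165 FPKM in the mutants, against 19367 and 18636 FPKM in the controls.

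Endoderm also uses gata5 and gata6, and its 10 tested genes had a median of -0.041, with foxa1 at -0.14 and prdx5 at -0.074, and a summed level of 432 and 458 FPKM in the mutants, against 466 and 462 FPKM in the controls. The endoderm sum rested largely on 1 gene. The yolk syncytial sum did not. Its highest gene, the row zgc:161979, had 6038 and 6097 FPKM in the mutants, against 6412 and 6564 FPKM in the controls. Without prdx5 the endoderm genes summed to 97.4 and 108 FPKM in the mutants, against 104 and 103 FPKM in the controls. Without the row zgc:161979, named after its values were seen, the yolk syncytial genes summed to 12247 and 11068 FPKM in the mutants, against 12955 and 12072 FPKM in the controls. The groups overlapped in both of these reduced sums, though not in the full sums. The part of these tissues in the values of gata5 and gata6 was not tested. The 3 heart muscle genes tested were actc1a at -0.089, which is also their median, smyd1b at -0.12 and tpm4a at 0.022.

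Among 10 skeletal muscle genes (median -0.049), ckma on chromosome 5 had 2.001 and 2.68 FPKM in the mutants, against 0.752 and 1.28 FPKM in the controls (log2 difference 0.92, unadjusted p = 0.0149 and adjusted p = 1.0 in limma), and unc45b was at -0.14. Muscle genes summed to 193 and 188 FPKM in the mutants, against 190.0 and 212 FPKM in the controls, so the groups overlapped. Their highest gene was acta1a, named after its values were seen. Without it they summed to 119 and 113 FPKM in the mutants, against 117 and 127 FPKM in the controls. The part of muscle in the values of mef2ca was not tested. The 8 tested genes of the neuron list had a median of -0.022, with 4 positive and 4 negative differences. The 2 of lowest p, cbfb and drgx, were at 0.23 and 0.18. Blood and endothelial genes, 10 of which were tested (median 0.077, spi1 at 0.34, egfl7 at 0.30), summed to 193 and 173 FPKM in the mutants, against 186 and 169 FPKM in the controls.

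**Figure D4:**
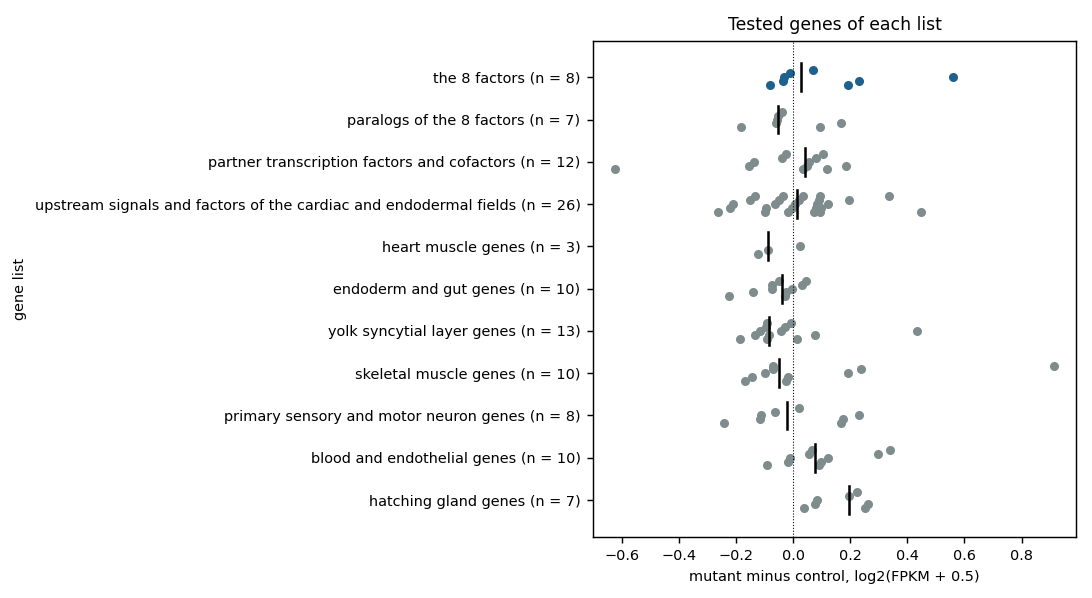
Mutant minus control differences on the log2(FPKM + 0.5) scale of each tested gene (points) in the 8 factors and in each gene list, with the median as a vertical bar. Most points lie within 0.3 of 0; mef2cb at 0.56, nkx2.5 at -0.62 and ckma at 0.92 stand apart.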

How the data were processed

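A single table was deposited by the authors for the whole series. It holds an FPKM value with 95% bounds for each gene in each library, beside a status of the estimate and the Zv9 position. RPKM stands in the column titles and FPKM in a second header line at the end, per the file headers. The submitters' processing notes give the genome build as danRer7 (Zv9) and list Cufflinks 2.1.1, Cuffdiff 2.0.2, TopHat and TopHat2 2.0.8, without saying which made the values. Of 32538 genes, 32400 had status OK in the 4 libraries and 13448 also had a mean of at least 1 FPKM. These were tested as log2(FPKM + 0.5), a pseudocount that understates changes of low genes, with limma 3.58.1 in R 4.3.3 (genotype as the only term, empirical Bayes with the variance trended on level, 4.66 degrees of freedom, two-sided, Benjamini-Hochberg over all genes tested, threshold 0.05). The fit was tested on simulated data. The 8 genes and the gene lists were chosen with earlier results of these data known. Of 177 list entries in 10 lists, 154 matched by symbol, 10 by gene ID through current symbols and 13 did not match; members of the 8 were left out of list counts. Named besides the 8 were tbx1, the paralogs, the 2 genes of lowest p in each other list, and the 3 genes nearest to the member of lowest p, 1 of which is not reported here; nppa, cmlc1, bmp10 and myl7 were chosen after their values were seen. Alternatives were other pseudocounts, minima, normalizations and empirical Bayes settings, a replicate block, leaving out short loci or single libraries, and the midpoint of the bounds in place of the value, the last chosen after seeing the data. Figures were drawn with matplotlib 3.10.9.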

Additional observations from a re-analysis of the deposited data

How the results depend on the processing

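None of the 8 genes passed an adjusted p of 0.05 under any setting run, and outside the settings that leave out a library none changed sign. gata4, mef2ca and mef2cb have no value at a mean of at least 5 FPKM, since their own means are lower. With 1 library left out, the log2 differences ranged from -0.079 to 0.22 for gata4, -0.057 to 0.033 for gata5, -0.11 to -0.052 for gata6, -0.12 to 0.055 for hand2, -0.17 to 0.095 for isl1, 0.063 to 0.40 for mef2ca, 0.14 to 0.98 for mef2cb, 0.12 to 0.27 for tmem88a and -0.94 to -0.83 for tbx1, so the sign of gata4, gata5, hand2 and isl1 turned. In these fits a lone library is assumed to vary like the others. The pseudocount moved mef2cb most, to 0.75 at 0.1 and 0.43 at 1. The 9 genes called among all genes became 28 to 39 with 1 library left out, 16 with robust empirical Bayes, 14 at a threshold of 0.10, 24 with the replicate block and loci under 300 bp left out, and 0 with the midpoints of the bounds, where 0 of the 8 genes passed as well; the cause was not tested. With the replicate block alone the count was 9, the unadjusted limma p was 0.0229 for mef2cb and 0.0353 for tmem88a, and the lowest adjusted p of the 8 was 0.920; with short loci also left out mef2cb had an adjusted p of 0.415 and tbx1 passed (log2 difference -0.88, adjusted p = 0.00976 in limma). Deviations of same-numbered libraries from their group means correlated at -0.0051 over all genes tested and at 0.347 over loci of at least 300 bp. With 2 pairs and no label for the number, what same-numbered libraries share is not known. Precision is limited by 2 libraries a group: the interval of mef2cb leaves room for changes of over 2-fold, that of gata5 for less than 1.2-fold.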
